A study of Sus scrofa with 150 samples.

Results

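This report compares the livers of pigs whose meat lost much water on hanging, called high drip livers, with those of pigs whose meat lost little, called low drip livers. The 2 groups were set by the drip loss in the sample labels alone. A liver counted as high drip at 7.52% or more and as low drip at 3.32% or less, which gave 30 high drip and 30 low drip livers of the 150 in the study. The other 90 livers, with drip losses of 3.4 to 7.44%, served only as samples that the comparison had not used. All animals were commercial crossbred pigs of the cross Pix(DLxDE), slaughtered at a mean end weight of 110 kg, and no group had a treatment. Sex, age, family and slaughter day are not in the labels used here, so the groups differ by a trait that was observed and not set. RNA from each liver was hybridised to 1 Affymetrix Porcine Genome Array, whose probe sets each measure a transcript as a brightness on the log2 scale.

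Drip loss is the fluid that leaves a cut of meat under its own weight. It depends on how the muscle acidifies after death and on how its proteins shrink and hold water, and stress before slaughter and the glycogen left in the muscle are known to affect it. The liver takes no part in the measurement, but it supplies glucose from glycogen and amino acids, clears lactate and nitrogen, and answers stress hormones through the glucocorticoid receptor. Here the trait was the percent of weight that a piece of the long back muscle, taken 24 h after death, had lost after hanging for 48 h at 4 °C.

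Drip loss averaged 8.52 ± 0.80% in the high drip group and 2.58 ± 0.55% in the low drip group (SD, n = 30 each). The high drip pigs ran from 7.52 to 10.82% with a median of 8.325%, and the low drip pigs from 1.45 to 3.32% with a median of 2.815%. The groups were chosen to lie apart on this measure. Fat area on the same muscle, the other labelled trait, averaged 15.1 cm2 in high drip pigs and 15.2 cm2 in low drip pigs (permutation p = 0.862, adjusted p = 0.862 over 8 measures).

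3 measures of the arrays and samples differed between the groups before adjustment, and none had an adjusted p under 0.05. The difference between the 3' and 5' control probe sets of actin, which grows as RNA is degraded, averaged 2.94 ± 0.44 on the log2 scale in high drip livers and 2.67 ± 0.42 in low drip livers (SD, n = 30 each; permutation p = 0.0177, adjusted p = 0.0708). The median signal of the array averaged 5.97 in high drip and 5.94 in low drip livers (permutation p = 0.0453, adjusted p = 0.121). The number in the sample title, whose meaning the labels do not give, averaged 283.3 in the high drip group and 457.3 in the low drip group (permutation p = 0.0157, adjusted p = 0.0708). No high drip liver had a title number of 600 or more, while 11 low drip livers had. The same control difference for GAPDH averaged 0.96 in high drip and 0.89 in low drip livers, and the EIF1AY probe set, a Y-linked translation factor, averaged 5.39 and 5.08 in those groups (adjusted p = 0.469 for each). Values of EIF1AY fell in a lower and an upper cluster. The upper cluster held 16 of the 30 high drip and 11 of the 30 low drip livers. Of 13 arrays in the study that stood apart from the rest by correlation, 1 was a high drip and 1 a low drip liver. Albumin (ALB), the main plasma protein made by hepatocytes, averaged 13.93 ± 0.08 in high drip and 13.95 ± 0.08 in low drip livers, on a scale whose highest value was 15.77.

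**Figure D1:**
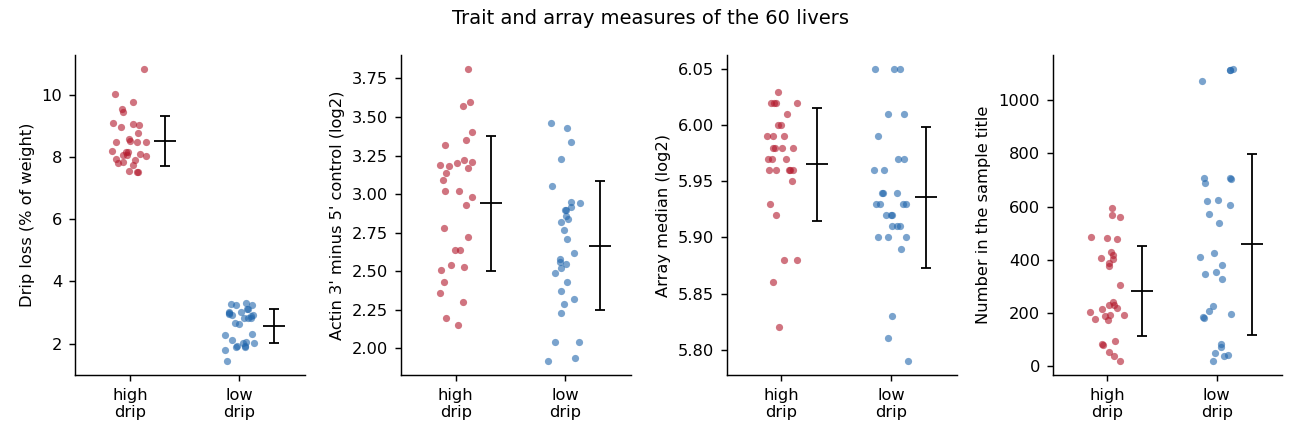
Drip loss in percent, the actin 3' minus 5' control difference and the array median on the log2 scale, and the number in the sample title, for the 30 high drip livers (red) and the 30 low drip livers (blue). Each point is a liver; the line and bar beside the points are the mean and 1 SD. Drip loss does not overlap by the choice of groups, the other 3 measures overlap, and 11 low drip livers have title numbers of 600 or more.

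No gene differed between high drip and low drip livers at an adjusted p under 0.05, with or without covariates. Of the 23999 probe sets that are not Affymetrix controls, 0 (0%) passed limma's test without covariates, and the smallest adjusted p was 0.362. At an unadjusted p under 0.05 there were 2276 probe sets, or 9.48%, where uniform p values would give 5%. Of these, 1267 (5.28%) were higher and 1009 (4.2%) lower in high drip livers. After quantile normalization the split was 876 higher and 1313 lower. The differences were small: the 95% interval lay within 1.5-fold in either direction for 99.1% of probe sets and within 2-fold for 99.9%. Just 10 probe sets differed by more than 1.5-fold and 1 by more than 2-fold. Each gene below is therefore given with its values, and none of the differences described is a call.

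With the array median and the actin control difference as covariates, 0 (0%) of the 23999 probe sets passed limma's test and the smallest adjusted p was 0.547. At an unadjusted p under 0.05 there were 1822 probe sets (7.59%), 987 (4.11%) higher and 835 (3.48%) lower. The 2 sets of probe sets at that threshold had 854 in common, 37.5% of the set without covariates and 46.9% of the set with them. Across all probe sets, the differences of the 2 fits correlated at r = 0.604, a description across probe sets that share the same 60 arrays. So most probe sets below the unadjusted threshold in one fit were not below it in the other.

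**Figure D2:**
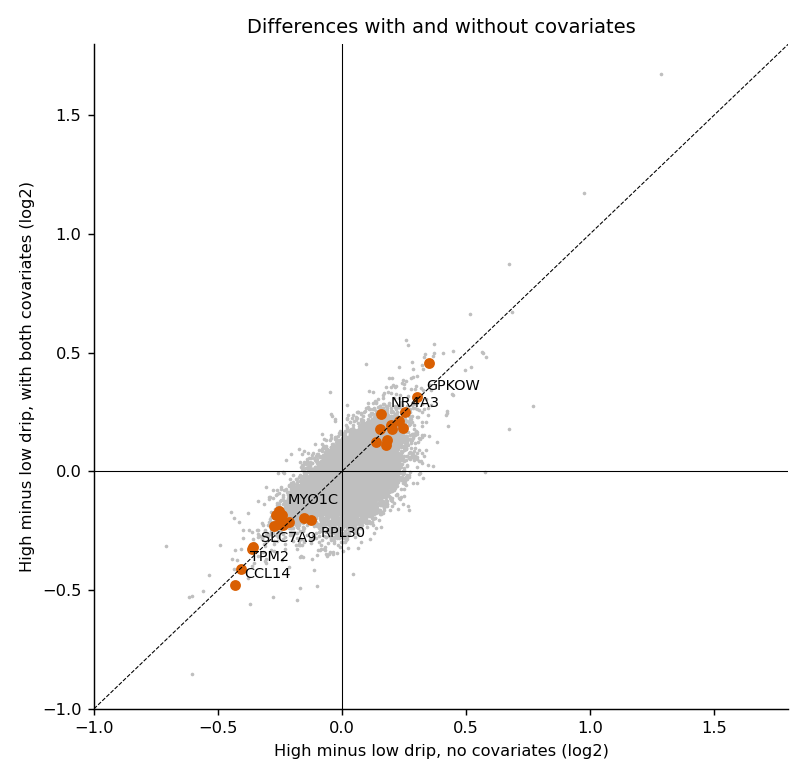
Difference between high drip and low drip livers of each of 23999 probe sets (grey), high minus low on the log2 scale, without covariates (horizontal axis) and with the array median and the actin control difference as covariates (vertical axis). Orange points are the 25 genes named by smallest p, and the dashed line marks equal values. The cloud is broad around that line (r = 0.604). The 25 genes, chosen by p in these same fits, lie on the same side of 0 in both.

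The 90 livers between the groups gave a check on other animals. Their slope on drip loss passed limma's adjusted threshold for 0 probe sets (0%; smallest adjusted p 0.996), and 843 (3.51%) had an unadjusted p under 0.05, 1.15% of all probe sets with a positive and 2.37% with a negative slope. With the covariates, 0 (0%) passed and 951 (3.96%) had an unadjusted p under 0.05, 1.72% with a positive and 2.24% with a negative slope. Drip loss spans less in these livers (SD 1.14%). Of the 20 genes named below from the fit without covariates, 13 had a slope of the same sign as their group difference, and 1 of the 20 had an unadjusted p under 0.05. That gene was VWF, and its slope had the opposite sign. Over all 2276 probe sets at an unadjusted p under 0.05 between the groups, 68.3% had the same sign in the livers between, against 58.8% of all 23999. With the covariates in both fits, the share was 45.8% of the 1822 probe sets at that threshold, against 45.9% of all 23999, and 5 of the 10 genes named from the fit with covariates.

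The list with the most genes lower at an unadjusted p under 0.05 was that of the actin and myosin cytoskeleton, the filaments and motors that shape cells and let stellate and vascular smooth muscle cells contract. Of its 26 measured genes, 20 were lower in high drip livers, 5 were higher and FLNA, an actin crosslinker, had the same mean in both groups. None passed the adjusted threshold. At an unadjusted p under 0.05, 11 of the 26 (42.3%) were lower and 0 higher, against 7.38% lower and 5.31% higher over all 6765 named genes. The median difference of the list was -0.14 on the log2 scale, against 0.005 over all named genes by brightest probe set and 0.017 over all probe sets. With both covariates 22 of the 26 were lower, 7 of them at an unadjusted p under 0.05, with a median of -0.11. Over all 6765 named genes, 251 were higher and 242 lower at that threshold with covariates, with a median of -0.0087. Counted by sign alone, 3517 of the 6765 were higher and 3235 lower without covariates, and 3081 higher and 3684 lower with them. These are the sign counts to set beside those of each list. The list was drawn up with an earlier result for MYO1C and MYL9 in these animals known. Without these 2 genes, 18 of 24 were lower, 9 at an unadjusted p under 0.05, with a median of -0.13. The list as a whole was chosen with earlier results of these data known, so this recount is not independent support.

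TPM2, a tropomyosin that lies along actin filaments, ran from 6.52 to 7.95 in high drip livers with a median of 7.27, and from 6.60 to 8.38 in low drip livers with a median of 7.69. The groups overlapped, but only 4 of 30 high drip livers lay above the low drip median. The difference was -0.41 on the log2 scale without covariates (SE 0.10, p = 0.000207, adjusted p = 0.362) and -0.41 with them (SE 0.11, p = 0.000446, adjusted p = 0.547). A further TPM2 probe set differed by -0.37 (p = 0.000504), and 2 others by 0.039 and -0.067. MYO1C, a membrane-linked single-headed myosin, ran from 6.58 to 7.45 with a median of 7.07 in high drip livers and from 6.90 to 7.82 with a median of 7.26 in low drip livers. Again the groups overlapped, with 7 of 30 high drip livers above the low drip median. Its difference was -0.25 (SE 0.061, p = 0.000101, adjusted p = 0.362), and -0.17 with the covariates (p = 0.00854).

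ACTA2, the smooth muscle actin that marks contractile and activated stellate cells, had the most negative difference in the list. It ran from 8.49 to 11.04 with a median of 9.82 in high drip livers and from 8.69 to 11.59 with a median of 10.24 in low drip livers. Both groups spread over more than 2 units of log2, and the difference of -0.56 had an SE of 0.18 (p = 0.00242, adjusted p = 0.424). TAGLN, an actin-binding protein of smooth muscle, differed by -0.42 (p = 0.00749), and MYL9, a myosin light chain of smooth muscle and non-muscle cells, by -0.28 (p = 0.0012). Genes used by nearly all cells were in the list as well: CFL1 (cofilin, which cuts actin filaments) differed by -0.21, TLN1 (talin, which ties actin to integrins) by -0.23, MYL6 by -0.16, ACTB (beta-actin) by -0.19, TMSB10 (an actin monomer binder) by -0.17 and MYH9 (non-muscle myosin) by -0.13. These 6 had unadjusted p values of 0.00367 to 0.04. Vimentin (VIM), the tropomyosins TPM1 and TPM4, CNN3 and MYH10 were the 5 with a positive difference, of at most 0.094. WASF2, which starts actin branching and was named by the fit with covariates, averaged 7.65 in high drip and 7.80 in low drip livers, with a difference of -0.20 in that fit (p = 0.00104) and 0.015 for its other probe set.

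**Figure D3:**
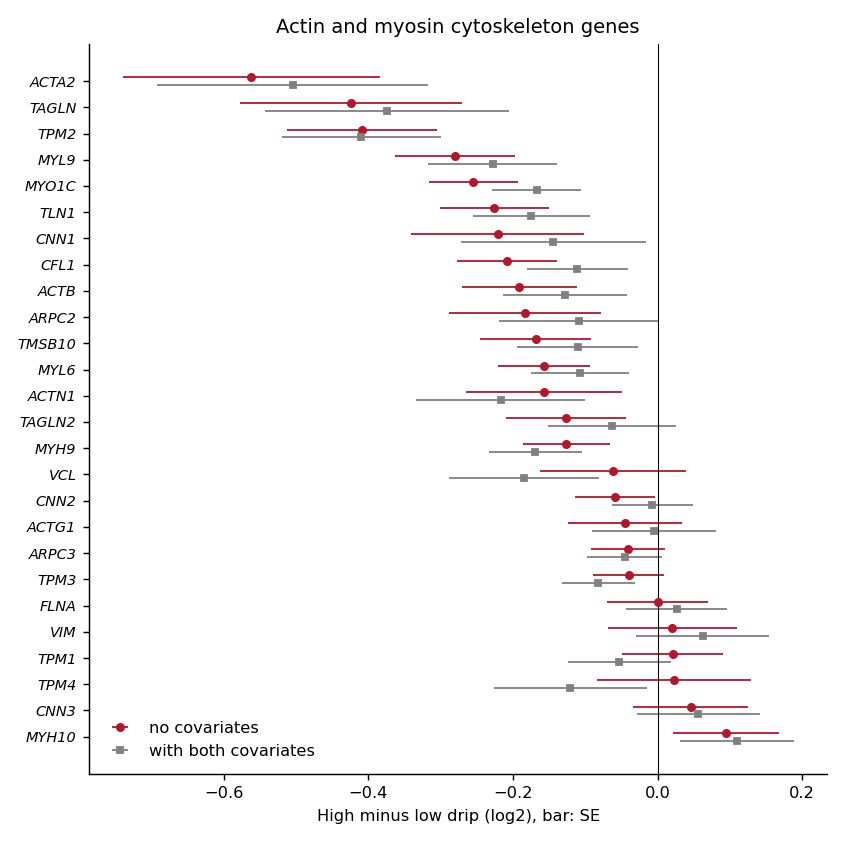
Difference between high drip and low drip livers of the 26 measured actin and myosin cytoskeleton genes, high minus low on the log2 scale, each by its brightest probe set. Red points are the fit without covariates and grey squares the fit with the array median and the actin control difference; bars are 1 SE. ACTA2, TAGLN and TPM2 are farthest below 0, and 20 of the 26 red points are below it.

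The mean over the cytoskeleton list was 8.92 ± 0.15 in high drip livers (8.64 to 9.24) and 9.07 ± 0.17 in low drip livers (8.72 to 9.38; SD, n = 30 each). Within blocks of 100 title numbers, 6 of which held livers of both groups, the difference of the list mean was between -0.35 and -0.10 in 5 blocks and 0.0082 in the 1 from 400 to 499. The actin control difference, which forms 1 of the covariates, moved with the groups too, and the list mean correlated with it at r = -0.25 over the 60 livers. That control is itself read from actin probe sets. Its part in the result was not tested beyond the fit with covariates. In the 90 livers between the groups, 19 of the 26 genes had a negative slope, 1 of them at an unadjusted p under 0.05. The median was -0.026 per percentage point of drip loss and -0.012 with the covariates. Over all 6765 named genes, 3702 had a negative slope in those livers, with a median of -0.0027 without covariates.

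Markers of stellate cells and fibroblasts, which make the liver's collagen and store vitamin A, had a negative median as well. Of 18 measured, 14 were lower in high drip livers, 5 of them (27.8%) at an unadjusted p under 0.05, and 1 (5.56%) was higher at that threshold, against 7.38% lower and 5.31% higher over all named genes. With covariates 3 were lower and 1 higher at that threshold. The median was -0.11 without and -0.10 with covariates. ACTA2, TAGLN and VIM are in this list and in the cytoskeleton list, and the means of the 2 lists correlated at r = 0.728 over the 60 livers. PDGFRB, the growth factor receptor of stellate cells, differed by -0.26 (SE 0.090, p = 0.00573) and by -0.27 with covariates. SPARC, a matrix protein, differed by -0.22 and COL6A2, a collagen chain, by -0.14, whereas COL1A2, a chain of the main fibrillar collagen, differed by 0.13 (p = 0.0144). The list mean ran from 7.92 to 8.70 with a median of 8.32 in high drip livers and from 7.76 to 8.89 with a median of 8.41 in low drip livers. Within the blocks of title numbers its difference ran from -0.42 to 0.24, with both signs. In bulk tissue, fewer cells of a type and less RNA per cell cannot be told apart.

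Markers of macrophages and Kupffer cells, the liver's resident phagocytes, had a median difference of -0.14 and of -0.11 with covariates. Of 14 measured, 9 were lower, 2 at an unadjusted p under 0.05 (14.3%, against 7.38% of all named genes), and 5 were higher, none at that threshold. With covariates 1 was lower at that threshold. TYROBP, a signalling adaptor of myeloid cells, ran from 7.18 to 8.14 with a median of 7.63 in high drip livers and from 7.28 to 8.66 with a median of 7.89 in low drip livers. 5 of 30 high drip livers lay above the low drip median, and the difference was -0.25 (SE 0.084, p = 0.00354, adjusted p = 0.427). The complement genes C1QA and C1QC differed by -0.23 and -0.18, and ITGB2, an integrin chain of leukocytes, by -0.19. The list mean had a median of 9.07 in high drip livers (8.52 to 9.47) and of 9.09 in low drip livers (8.75 to 10.00). Its difference within the blocks of title numbers ran from -0.55 to 0.055, with both signs. It was 0.030 in block 0 to 99, 0.0032 in block 300 to 399 and 0.055 in block 500 to 599. The block at -0.55 held 2 low drip livers, 1 of them the liver with the list mean of 10.00. That liver's array stood apart from the rest by correlation. Without the 1 high drip and 1 low drip array that stood apart, the list median was -0.093. In the livers between the groups, 13 of the 14 genes had a negative slope, none at an unadjusted p under 0.05. Of all 6765 named genes, 3702 had a negative slope there.

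Of 12 endothelial markers, 7 were lower, with a list median of -0.044. With covariates 1 was lower and 1 higher at an unadjusted p under 0.05. Without them 3 (25%, against 7.38% of all named genes) were lower at that threshold. The 3 were ENG and ESAM, membrane proteins of vessels, and the brightest probe set of VWF, the clotting factor carrier, which differed by -0.25 (p = 0.0276). Another VWF probe set, named by its small p in both fits, went the other way, with a mean of 4.84 in high drip and 4.68 in low drip livers and a difference of 0.15 (p = 0.000633, and 0.18 with covariates). That probe set lay near the floor of the scale, 4.09, and its slope in the livers between was -0.048 (p = 0.00799). The 12 T and NK cell markers were split at 6 and 6, with CCL5, a chemokine of cytotoxic cells, at -0.28 (p = 0.00192) and CD4 at -0.11. Of 8 neutrophil markers 5 were higher and 3 lower, from -0.25 to 0.32, with a median of 0.037. MMP9, a matrix-cutting protease, differed by 0.32 (SE 0.099, p = 0.00207) and by 0.35 with covariates (p = 0.00156). It was the only 1 (12.5%, against 5.31% of all named genes) at an unadjusted p under 0.05 without covariates. With covariates 2 were higher at that threshold. In the livers between the groups, 6 of the 8 had a negative slope, with a median of -0.013. Hepatocyte markers were mostly slightly higher (12 of 15) with a median of 0.017. CYP3A29, a drug-metabolising enzyme, was the 1 with an unadjusted p under 0.05 (6.67%, against 5.31% of all named genes). With covariates 0 hepatocyte markers were at that threshold. Without covariates, none of 17 muscle markers had an unadjusted p under 0.05. Markers of bile ducts, fat cells, exocrine pancreas, red blood cells and B cells had none either in that fit. With covariates 1 of the 17 muscle markers was lower and 1 of 5 exocrine pancreas markers higher at that threshold. Over all 6765 named genes, 242 were lower and 251 higher in the same fit.

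Among secreted signals, CCL14, a chemokine that acts on monocytes, had a larger difference than any other of the 25 genes named by p. It ran from 6.48 to 9.21 with a median of 8.58 in high drip livers and from 8.23 to 9.91 with a median of 8.95 in low drip livers. 4 of 30 high drip livers lay above the low drip median, and the lowest value belonged to a high drip liver. The difference was -0.43 (SE 0.12, p = 0.000848, adjusted p = 0.402), and -0.48 with covariates (SE 0.12, p = 0.000179, adjusted p = 0.547). TGFB2, a growth factor of the transforming growth factor family, ran from 6.03 to 6.95 with a median of 6.61 in high drip livers and from 5.68 to 6.82 with a median of 6.26 in low drip livers. 28 of 30 high drip livers lay above the low drip median. It differed by 0.25 (SE 0.067, p = 0.000476) and by 0.18 with covariates (p = 0.0127). The 3 other TGFB2 probe sets, all near the floor, differed by 0.023 to 0.042.

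**Figure D4:**
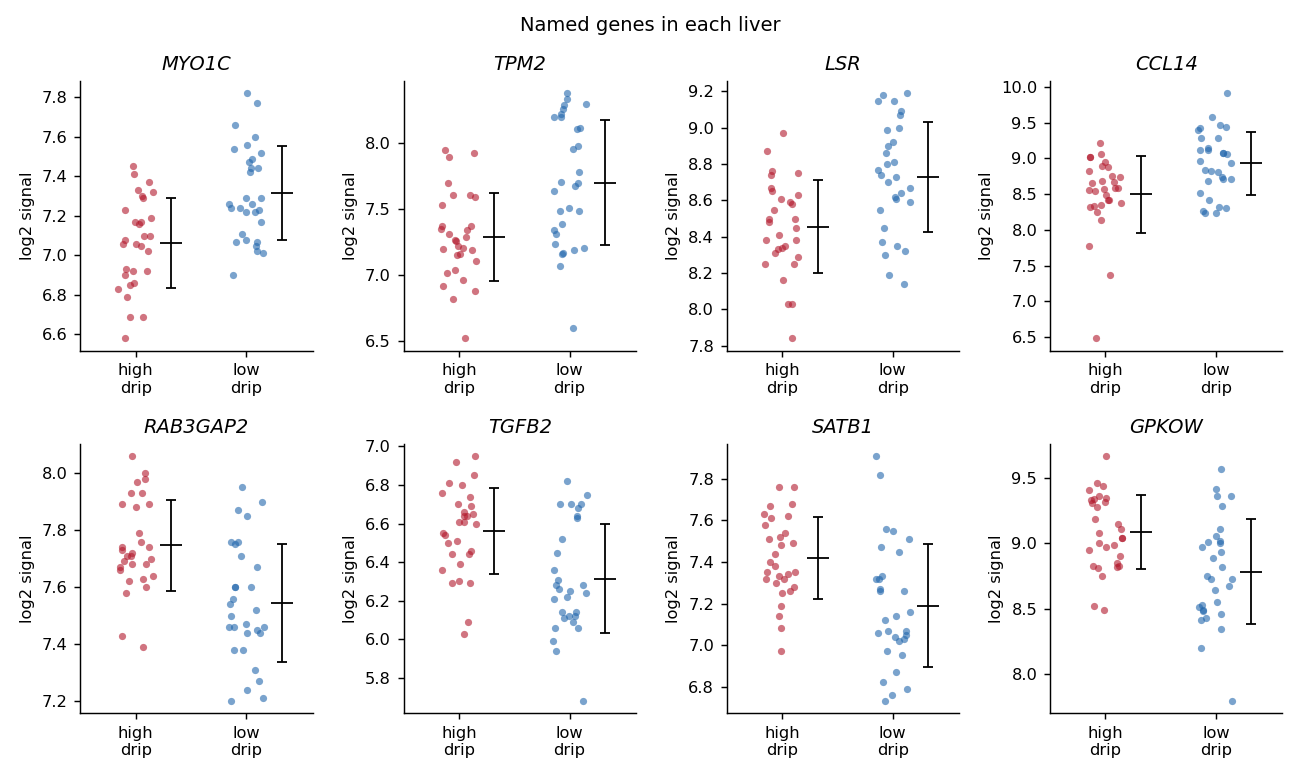
Log2 signal of 8 named genes in each of the 30 high drip livers (red) and the 30 low drip livers (blue). The line and bar beside the points are the mean and 1 SD. MYO1C, TPM2, LSR and CCL14 have lower means and RAB3GAP2, TGFB2, SATB1 and GPKOW higher means in high drip livers, and the groups overlap for all 8; none passed the adjusted threshold.

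Several named genes belong to vesicle traffic and cilia. RAB3GAP2, part of the complex that acts on the small GTPases RAB3 and RAB18, ran from 7.39 to 8.06 with a median of 7.72 in high drip livers and from 7.20 to 7.95 with a median of 7.51 in low drip livers. 28 of 30 high drip livers lay above the low drip median. Its difference was 0.20 (SE 0.051, p = 0.000172) and 0.18 with covariates (p = 0.00159), with a slope of -0.031 in the livers between. The 2 other RAB3GAP2 probe sets differed by 0.074 and 0.05, and by 0.0053 and -0.11 with covariates. RAB23, a small GTPase of cilia, differed by 0.18 in the named probe set and by 0.13 and 0.16 in its other probe sets. KIF3A, a kinesin motor of cilia, averaged 4.80 in high drip and 4.60 in low drip livers, near the floor, and its 3 other probe sets differed by -0.013 to 0.053. CEP85, a centrosome protein, differed by 0.18 and by 0.11 with covariates. TBC1D22A, a protein with the domain of GTPase activators, averaged 4.98 in high drip and 5.19 in low drip livers and differed by -0.21 in both fits (p = 0.000118 and p = 0.000228), whereas its brighter probe set differed by 0.008. Of the 15 cilium and kinesin genes, 11 were higher, 2 of them (13.3%, against 5.31% of all named genes) at an unadjusted p under 0.05 and none with covariates. The median was 0.058, and 0.0099 with covariates.

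Membrane proteins made up another set of named genes. LSR, a lipoprotein receptor of hepatocytes that also builds cell junctions, ran from 7.84 to 8.97 with a median of 8.47 in high drip livers and from 8.14 to 9.19 with a median of 8.74 in low drip livers. 5 of 30 high drip livers lay above the low drip median, and it was lower in high drip livers in all 6 blocks of title numbers. The difference was -0.27 (SE 0.073, p = 0.000379) and -0.23 with covariates (p = 0.00404). SLC7A9, a carrier of cystine and basic amino acids, ran from 4.33 to 6.07 with a median of 5.19 in high drip livers and from 4.95 to 6.24 with a median of 5.64 in low drip livers. It also was lower in all 6 blocks and differed by -0.36 (SE 0.098, p = 0.000467). FXYD6, a regulator of the sodium pump, differed by -0.36 (p = 0.000362), with a slope of 0.042 in the livers between. SLC25A11, the mitochondrial carrier of malate and oxoglutarate, differed by -0.24, and TMEM176A, a membrane protein of immune and other cells, by 0.26 with a slope of -0.045 in the livers between.

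The remaining named genes act in the nucleus or on RNA. SATB1, an organiser of chromatin, ran from 6.97 to 7.76 with a median of 7.39 in high drip livers and from 6.73 to 7.91 with a median of 7.13 in low drip livers. 28 of 30 high drip livers lay above the low drip median, and the difference was 0.23 (SE 0.066, p = 0.000949) and 0.21 with covariates (p = 0.000606). Its 3 other probe sets, near the floor, differed by 0.012 to 0.16. GPKOW, a splicing factor, ran from 8.49 to 9.67 with a median of 9.06 in high drip livers and from 7.79 to 9.57 with a median of 8.74 in low drip livers. It differed by 0.30 (SE 0.089, p = 0.00112) and 0.31 with covariates, and by 0.015 in its other probe set. INIP, a part of a single-stranded DNA binding complex, differed by 0.14, and its 3 other probe sets by 0.048 to 0.25. NR4A3, an orphan nuclear receptor, differed by 0.24 with covariates (p = 0.000768), against -0.021 for its other probe set in the same fit.

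For the RNA genes that were lower, the probe sets of a gene differed. CSTF1, an mRNA cleavage factor, averaged 4.75 in high drip and 5.01 in low drip livers (difference -0.25, p = 0.000258), while a brighter probe set differed by -0.057. RAN, the GTPase of nuclear transport, differed by -0.24 in the named probe set (p = 0.000458) and by -0.20 to 0.16 in its 8 others, of which 2 with high signals averaged 12.29 and 11.74 in high drip livers against 12.23 and 11.74 in low drip livers. RPL30, a ribosomal protein, lay at 4.37 in high drip and 4.49 in low drip livers, near the floor, and had the smallest p of any named gene with covariates (difference -0.21, p = 5.1e-05). The 58 cytosolic ribosomal proteins had a median of 0.022. At an unadjusted p under 0.05, 4 (6.9%) were higher, among them RPL5 and RPS6, and 1 (1.72%) lower. Over all named genes the shares were 5.31% higher and 7.38% lower. With covariates 2 ribosomal proteins were higher and 1 lower at that threshold. LOC100522115 and LOC100522401 carry no function in the tables used here. The first differed by -0.27 (p = 0.000161), and the second by 0.35, or 0.45 with covariates (p = 0.000617), with an SD of 0.28 in high drip and 0.63 in low drip livers.

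Among metabolic lists, the urea cycle and amino acid breakdown genes had the most members higher at an unadjusted p under 0.05, with 6 of 18 (33.3%) against 5.31% of all named genes, and 1 lower. CPS1, the first enzyme of the urea cycle, ran from 11.88 to 12.93 with a median of 12.50 in high drip livers and from 11.65 to 12.83 with a median of 12.34 in low drip livers. 24 of 30 high drip livers lay above the low drip median, and the difference was 0.22 (SE 0.074, p = 0.00497, adjusted p = 0.427). The next enzymes of the cycle, OTC, ASS1 and ARG1, differed by 0.27, 0.13 and 0.18, but ASL by -0.027. CTH, which makes cysteine, differed by 0.27 and BCKDHB, a subunit of the branched-chain keto acid dehydrogenase, by 0.15, while BCKDK, the kinase that switches that complex off, differed by -0.13. The 6 became 1 with covariates (ASS1), and the median of the list was 0.021 without and 0.041 with them. In the 90 livers between the groups the signs were the other way: all 18 slopes were negative, with 3 at an unadjusted p under 0.05, and the median was -0.036 per percentage point. Those 3 were MAT1A, HPD and FAH. Of all 6765 named genes, 3702 had a negative slope in those livers, 134 at an unadjusted p under 0.05, with a median of -0.0027.

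Of 12 glycolysis genes, 8 were lower in high drip livers, 3 of them (25%, against 7.38% of all named genes) at an unadjusted p under 0.05. With covariates 2 were lower at that threshold, and the median was -0.027 without and -0.038 with them. GPI, which turns glucose phosphate into fructose phosphate, ran from 10.13 to 11.02 with a median of 10.46 in high drip livers and from 10.16 to 11.15 with a median of 10.64 in low drip livers. Only 1 of 30 high drip livers lay above the low drip median, although the ranges overlapped, and it was lower in all 6 blocks. The difference was -0.18 (SE 0.053, p = 0.00105, adjusted p = 0.402) and -0.16 with covariates (p = 0.00556). HK1, a hexokinase, differed by -0.17 and TPI1, a triose isomerase, by -0.16, which was -0.069 with covariates. Of the 12 genes of glycogen and glucose release, 9 were higher and 3 lower, and none had an unadjusted p under 0.05. Its members of smallest p were UGP2, which makes the glycogen precursor, at 0.18 (p = 0.101) and FBP1, an enzyme of glucose synthesis, at 0.075 (p = 0.195).

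**Figure D5:**
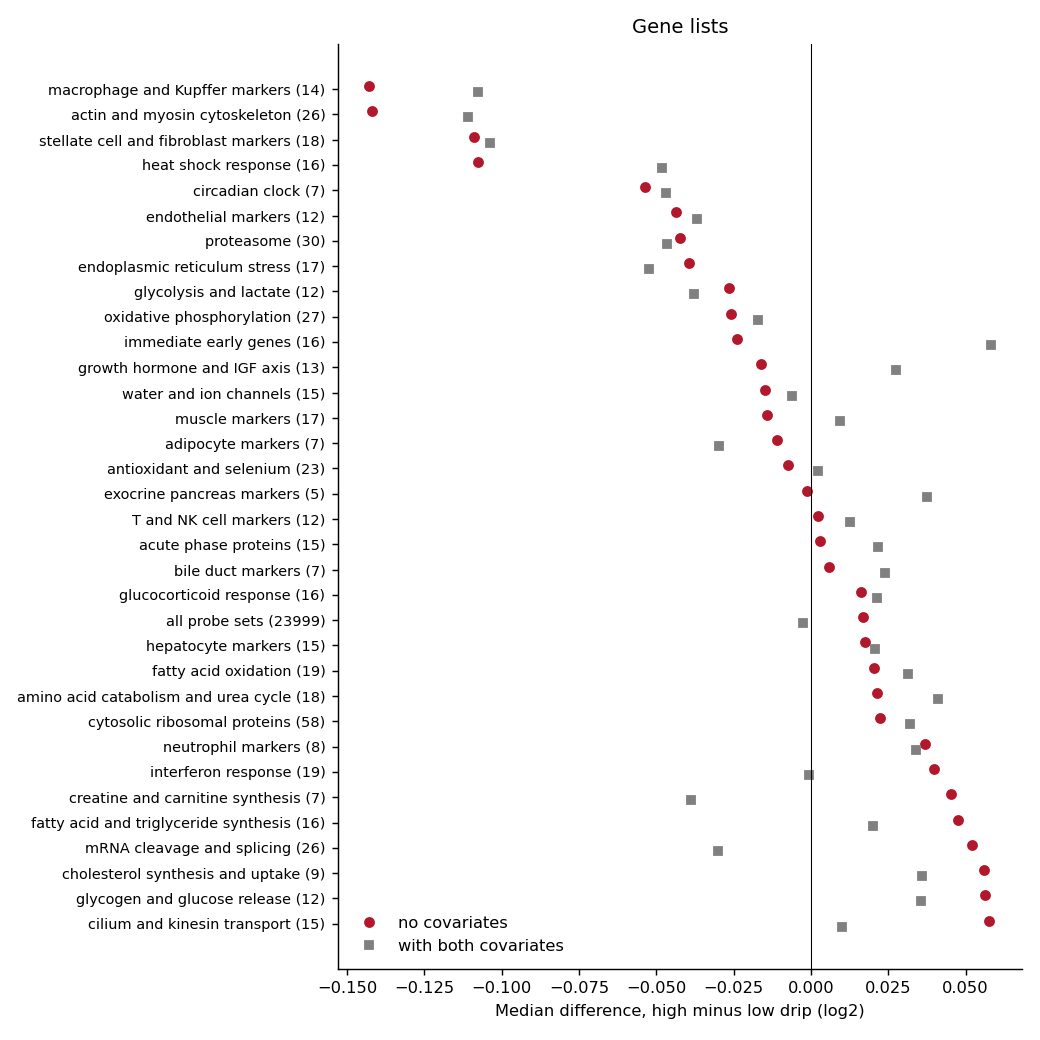
Median difference between high drip and low drip livers over the genes of each list with 5 or more measured genes, high minus low on the log2 scale, with the number of genes in brackets. Red points are the fit without covariates and grey squares the fit with the array median and the actin control difference. The macrophage, cytoskeleton, stellate cell and heat shock lists lie lowest, at -0.14 to -0.11 without covariates, against 0.017 for all probe sets. All named genes by brightest probe set, not drawn, had a median of 0.005.

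Genes of stress hormone action were mixed. Of the 16 glucocorticoid genes, 2 (12.5%) were higher and 2 (12.5%) lower at an unadjusted p under 0.05, against 5.31% and 7.38% of all named genes. With covariates 1 was higher and 0 were lower. NR3C1, the glucocorticoid receptor itself, averaged 6.63 ± 0.27 in high drip and 6.38 ± 0.32 in low drip livers (SD, n = 30 each), a difference of 0.25 (SE 0.076, p = 0.00165, adjusted p = 0.402) that was 0.17 with covariates (p = 0.0187). Its targets differed in both directions: KLF9, a transcription factor, by 0.30, SGK1, a kinase of ion transport, by -0.36, and ANGPTL4, a secreted blocker of lipoprotein lipase, by -0.26. With covariates these 3 were 0.15, -0.26 and -0.14, with p values of 0.126 to 0.31. None of the 16 immediate early genes, which answer acute stress, had an unadjusted p under 0.05.

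Heat shock genes, chaperones that bind unfolded proteins, were lower for 13 of 16, with a median of -0.11. At an unadjusted p under 0.05, 3 (18.8%) were lower, against 7.38% of all named genes. HSPB1, a small chaperone that also binds actin, averaged 10.92 ± 0.43 in high drip and 11.23 ± 0.51 in low drip livers (SD, n = 30 each), a difference of -0.31 (p = 0.0109). CRYAB, a small chaperone, differed by -0.26 and STIP1, a partner of the large chaperones, by -0.18. With the covariates 11 were lower, none at an unadjusted p under 0.05, and the median was -0.048. The low drip group held 1 liver with a list mean of 11.51, in the block of title numbers 500 to 599, where the difference was -1.06. In the other 5 blocks that held both groups it ran from -0.0018 to 0.13. The 11 low drip livers with title numbers of 600 or more are in none of these blocks. Their list means ran from 9.36 to 10.07, against 9.28 to 9.91 in all high drip livers. The medians of the list mean were 9.52 in high drip and 9.55 in low drip livers. Genes of endoplasmic reticulum stress had 1 higher (DNAJC3, 0.11) and 1 lower at that threshold (MANF, a secreted stress protein, -0.36) among 17. Each is 5.88% of the list, against 5.31% higher and 7.38% lower over all named genes.

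Antioxidant genes differed in both directions within a family. Of 23, 4 (17.4%) were higher and 3 (13%) lower at an unadjusted p under 0.05, against 5.31% and 7.38% of all named genes. The median was -0.0073, and with covariates 3 were higher and 3 lower. The peroxiredoxins, enzymes that remove peroxides, were split: PRDX6 and PRDX3 differed by 0.16 and 0.17, and PRDX1 by -0.29 (SE 0.099, p = 0.00493), with values of 0.16, 0.16 and -0.25 in the fit with covariates. SELENOW, a small selenoprotein, averaged 9.47 ± 0.24 in high drip and 9.71 ± 0.31 in low drip livers (difference -0.24, p = 0.00138; -0.19 with covariates). In the respiratory chain, 12 of 27 genes were higher and 15 lower, with 1 higher (3.7%) and 4 lower (14.8%) at an unadjusted p under 0.05. Among these were NDUFS1 at 0.20 and NDUFB8, NDUFV1 and NDUFS3, all of complex I, at -0.15 to -0.12. With covariates 1 was higher and 0 were lower at that threshold. Of 30 proteasome genes 18 were lower, 2 of them (6.67%, against 7.38% of all named genes) at an unadjusted p under 0.05, PSMD3 and PSMD8, both lid subunits. The list median was -0.042, and 25 were lower with covariates, 1 at that threshold.

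Water and ion channels, listed for their link to fluid balance, gave few differences. CALM3, a calmodulin gene, differed by -0.21 (p = 0.0074), AQP11, an intracellular aquaporin, by -0.19 and ITPR1, a calcium release channel, by 0.15. These 3 of 15 were at an unadjusted p under 0.05 in both fits. Without covariates that is 1 higher (6.67%) and 2 lower (13.3%), against 5.31% and 7.38% of all named genes. Of lipid genes, ACADM, an enzyme of fatty acid oxidation, differed by 0.30 and by 0.061 with covariates, and ETFDH of the same pathway by 0.19 and 0.13. SREBF1, the regulator of fatty acid synthesis, differed by 0.18 and SC5D, a cholesterol synthesis enzyme, by 0.26, with 0.15 and 0.096 in the fit with covariates. IGFBP2, a binding protein of the insulin-like growth factors, differed by -0.24 and their receptor IGF1R by 0.088. Among 26 mRNA cleavage and splicing genes 18 were higher without covariates and 8 with them, and SRSF5, a splicing factor, differed by 0.29 and by 0.054 with covariates. Lists of interferon response, circadian clock and creatine and carnitine synthesis had 0 genes at an unadjusted p under 0.05. The acute phase proteins had 1 higher (6.67%, against 5.31% of all named genes), the fibrinogen chain FGG at 0.12, and 0 with covariates.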

How the data were processed

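The authors' deposited values were used as they stand: log2 signals per probe set, with 2 decimals and a floor of 4.09, the scale being read from the values. Arrays had been processed with GCOS 1.1.1, per the submitters' processing notes; how probes were summarised, corrected for background and normalized is not stated there or in the labels, and no genome build is named. Of 24123 probe sets, 124 controls were left out. Gene names came from the platform annotation, updated through Entrez IDs with the pig table of Sscrofa11.1: 10069 probe sets had 1 symbol, 198 several and 13732 none.

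The 30 high drip and 30 low drip arrays were compared with limma 3.58.1 (lmFit, eBayes with trend, two-sided) in R 4.3.3, with Benjamini-Hochberg adjustment over 23999 probe sets, without covariates and with the array median and the actin 3' minus 5' control difference. The same model fitted a slope on drip loss in the 90 livers between. The fits of high against low drip livers, without and with both covariates, were tested on simulated data with independent noise per probe set. The slope fit and the alternatives were not. Array measures had permutation tests of 100000 resamples (Python 3.11.15, scipy 1.17.1). The number of arrays limits the precision. Each array is a different pig by its title; nothing else in the labels says how animals were kept or related.

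Named genes were, in each direction, the 10 of smallest p without covariates and the 5 of smallest p with them, since none passed, and up to 4 members of smallest p of each list. Other genes were chosen after their values were seen. A gene counted once in a list, by its brightest probe set. The members and lists were chosen with earlier results of these data known, so lists have counts and medians and no test. Alternatives were other covariates, blocks of 100 title numbers, quantile normalization, filters, other eBayes settings, other tails, normal scores and leaving out arrays.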

Additional observations from a re-analysis of the deposited data

How the results depend on the processing

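Without covariates, 0 probe sets passed the adjusted threshold under all 19 alternatives, and with both covariates 0 passed under all but 1 of 10. The exception, added after the data were seen, kept only title numbers below 600 (30 high drip and 19 low drip livers): 1 probe set passed, that of TBC1D22A near the floor (difference -0.31, adjusted p = 0.0467), and the cause was not tested. The number at an unadjusted p under 0.05 without covariates, 2276, was 1323 with the array median as covariate, 1466 with blocks of title numbers and 1131 with title numbers below 600, which also leaves 11 livers out; it was 2607 with the actin difference alone, 2533 for 40 against 40 livers and 2406 for 20 against 20. The 843 of the livers between were 2638 when all 150 arrays entered the slope, which then includes both groups. Quantile normalization gave 876 higher and 1313 lower, against 1267 and 1009. In the fit with covariates it was run with the actin difference alone, since the array medians are then equal. The 25 named genes kept their sign in all 432 values over their alternatives, and their smallest adjusted p was 0.111. They were chosen by p in arrays that the alternatives largely share, so a kept sign is not independent support. Medians of 3 of 36 lists changed sign when all probe sets of a list were counted, with shifts of at most 0.095. Under 9 other settings 21 of the 36 changed sign at least once, but not the cytoskeleton, stellate cell, macrophage and heat shock lists. A kept sign was not particular to these. The glycolysis, proteasome, respiratory chain, endothelial, hepatocyte, neutrophil and cilium lists kept theirs too. So did the glucocorticoid, glycogen, cholesterol and amino acid lists, although the amino acid list had a negative median slope in the livers between (-0.036). Each setting kept the low drip liver with a heat shock list mean of 11.51. In the other blocks that held both groups the heat shock difference ran from -0.0018 to 0.13. That range leaves out the 11 low drip livers with title numbers of 600 or more. The 324 values moved by less than 1 SD of the list mean between livers, a wide bound that a lost difference could pass. For the cytoskeleton list that SD was 0.15 in high drip and 0.17 in low drip livers, beside a median difference of -0.14. No paired analysis was possible because the labels give no replicate numbers shared between the groups. Depth is not a measure of these arrays; signals near the floor of 4.09 understate differences, and the labels give no sex, family or batch.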

Other observations

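The 10 probe sets that differed by more than 1.5-fold were chosen by size after their values were seen, and none passed the adjusted threshold. GALP, a galanin-like peptide, ran from 5.35 to 11.72 with a median of 10.36 in high drip livers and from 4.09 to 11.56 with a median of 8.07 in low drip livers (difference 1.29, SE 0.54, p = 0.0211, and 1.67 with covariates). TAF1D, a subunit of a factor for ribosomal RNA transcription, ran from 4.28 to 8.93 with a median of 7.26 in high drip livers and from 4.22 to 9.42 with a median of 4.86 in low drip livers (difference 0.98, SE 0.40, p = 0.0166, and 1.17 with covariates). For both genes the livers of each group spread over more than the difference between the means. DIRAS3, an imprinted GTPase of the Ras family, averaged 6.37 ± 0.95 in high drip and 5.68 ± 0.81 in low drip livers (SD, n = 30 each), a difference of 0.69 (SE 0.22, p = 0.00267, adjusted p = 0.427) and 0.67 with covariates. TSKU, a secreted proteoglycan, averaged 8.34 ± 0.98 in high drip and 8.94 ± 1.04 in low drip livers, a difference of -0.60 (p = 0.0187) and -0.53 with covariates. Among livers with title numbers below 600 the difference of TSKU was -0.30 without covariates.

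In the 90 livers between the groups, the slopes of these 4 genes had unadjusted p values of 0.288 to 0.747. GSTA1, a detoxifying enzyme, differed by 0.68, with 2 high drip livers at 13.7 and 13.46, the next at 6.4, and medians of 4.74 in high drip and 4.59 in low drip livers. CYP3A22, a cytochrome P450, and CBR1, a carbonyl reductase, differed by -0.60 and -0.62 with p values of 0.353 and 0.203, and by -0.13 and -0.53 among livers with title numbers below 600. The other 3 probe sets have no symbol, and their signals correlated with that of the EIF1AY probe set at r = -0.922, 0.976 and 0.954 over the 60 livers. The first was above 7 in 14 high drip and 19 low drip livers, and each of the others in 16 and 11. The upper cluster of EIF1AY also held 16 high drip and 11 low drip livers.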
